A study of Mus musculus with 12 samples.

Results

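Protocadherins are cell surface adhesion proteins of the cadherin superfamily, and their transcripts were followed here in mouse N2A neuroblastoma cells with a stable knockdown of the long non-coding RNA (lncRNA) Dali. Members were all probe sets, the groups of array probes summarised to 1 value, whose single annotated gene symbol starts with Pcdh. They covered 34 genes of the 19938 with a probe set of their own, on 36 of 21789 such probe sets and 35556 on the array in all, and the rule reads gene symbols alone. Of the 36, 22 belonged to the 22 genes of the beta cluster and 14 to 12 non-clustered genes, since Pcdh9 and Pcdh15 had 2 probe sets each. Outside the rule lay 1 probe set that carries the symbols of all 14 alpha cluster genes, and none of the 21 gamma cluster genes in RefSeq stood as a symbol on any probe set.

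N2A is a mouse neuroblastoma line that extends neurites when treated with all-trans retinoic acid (RA). RNA was hybridised to 12 Affymetrix whole-transcript arrays, 3 for each of 4 groups: knockdown (KD) cells after RA, control cells after RA, proliferating KD cells and proliferating control cells. KD cells carried a U6-driven short hairpin RNA (shRNA) against Dali and control cells a scrambled, non-targeting shRNA. All 4 groups had been co-transfected with a hygromycin resistance plasmid, selected with 200 ug/ml hygromycin B and grown from isolated drug-resistant clones. RA groups spent 72 h in medium with 20 uM RA and 2% serum, against 10% serum for proliferating cells, so that RA and serum cannot be told apart. The study's methods describe several independent KD lines and a single control line, and the labels do not say which clone an array came from. A difference between clones and the effect of the knockdown therefore cannot be told apart, and the p-values below measure only the spread between these arrays.

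In the mouse the alpha, beta and gamma protocadherin genes lie one after another on chromosome 18. Each beta gene is a single exon with its own promoter, and a neuron transcribes only some of them, through a choice in which DNA methylation and looping by CTCF and cohesin take part; the proteins bind like to like across cell contacts and give neurites a surface identity. The non-clustered protocadherins are encoded by genes scattered over the genome and serve mostly as adhesion and sorting molecules in the developing nervous system.

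The deposited values are log2 expression values on a scale shared by all arrays, whose medians lay between 7.15 and 7.21. Of the neuroblastoma and sympathoadrenal markers with a probe set of their own, 8 of 10 lay above the array median on every array, and the neurofilament genes Nefl and Nefm below it. Some of these markers changed too, the transcription factors Phox2a with KD after RA (-0.42), Isl1 and Hand2 with KD in proliferating cells (0.40 and 0.38) and Gata2 with RA (-0.67 in KD cells and -0.85 in control cells), and their part in the results was not tested. Glial markers lay below the median on every array in 6 of 6 cases and markers of immune and endothelial cells in 7 of 7. Among 8 fibroblast markers, 2 lay above it and 3 below it on every array, and their mean level was 7.24 to 7.41 on the RA KD arrays, 7.37 to 7.48 on the RA control arrays, 7.19 to 7.26 on the proliferating KD arrays and 7.41 to 7.46 on the proliferating control arrays. Pdgfrb, a growth factor receptor of mesenchymal cells, changed by -0.39 with KD after RA and by -0.85 in proliferating cells. Among the 7 immune and endothelial markers the lowest RA change was -0.53 in KD cells and -0.63 in control cells. The part of these markers in the results was not tested. Dali was not assigned to a probe set in the annotation used, so the knockdown was not checked on these arrays. Among the beta probe sets, 2 lay above the array median on all 12 arrays, 12 below it on all 12 and 8 on either side, and among the non-clustered ones the counts were 1, 11 and 2.

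The first question was how Dali depletion left the protocadherins in differentiated and in proliferating cells. Beta cluster transcripts were higher in KD cells in both states, and most non-clustered ones showed no change past the thresholds. To be called, a probe set had to pass an adjusted p of 0.05 in limma (Benjamini-Hochberg, over all 21789 probe sets) and to change by at least 1.3-fold. After RA 19 of 22 beta probe sets had higher calls in KD cells and 0 had lower ones, where 1.82% of all probe sets tested were called higher and 1.98% lower. In proliferating cells 17 of 22 were called higher and 0 lower, against 1.95% and 1.42% of all probe sets. On the log2 scale, the median beta change was 0.63 after RA and 0.54 before it, while the median over all probe sets was -0.03 after RA and -0.01 before it. In bulk RNA, a change in the share of cells with a transcript and a change in its amount per cell cannot be told apart.

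The calls spanned log2 changes of 0.38 to 0.91 after RA, with adjusted p of 0.00145 or lower (limma), and 0.47 to 1.13 in proliferating cells, with adjusted p of 0.00192 or lower. Without the fold threshold, 21 beta probe sets passed the adjusted p as higher after RA and 20 in proliferating cells, as did 9.6% of all probe sets after RA and 10.8% in proliferating cells. All 3 KD arrays lay above all 3 control arrays for 21 of 22 beta probe sets in each state, an arrangement found in 14.7% of all probe sets after RA and 19.9% in proliferating cells. In both states 16 beta genes were called higher, as were 0.89% of all probe sets, and 20 were called higher in at least 1 state, as were 2.87% of all. These comparisons share no arrays, but the study describes a single control line and the labels do not name the clones. The states are therefore not independent as to clone. Across the 22 genes, the KD change after RA and that in proliferating cells had a Pearson r of 0.81, and over all probe sets r was 0.67; the genes of 1 comparison share their arrays, so r is given as a description.

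**Figure D1:**
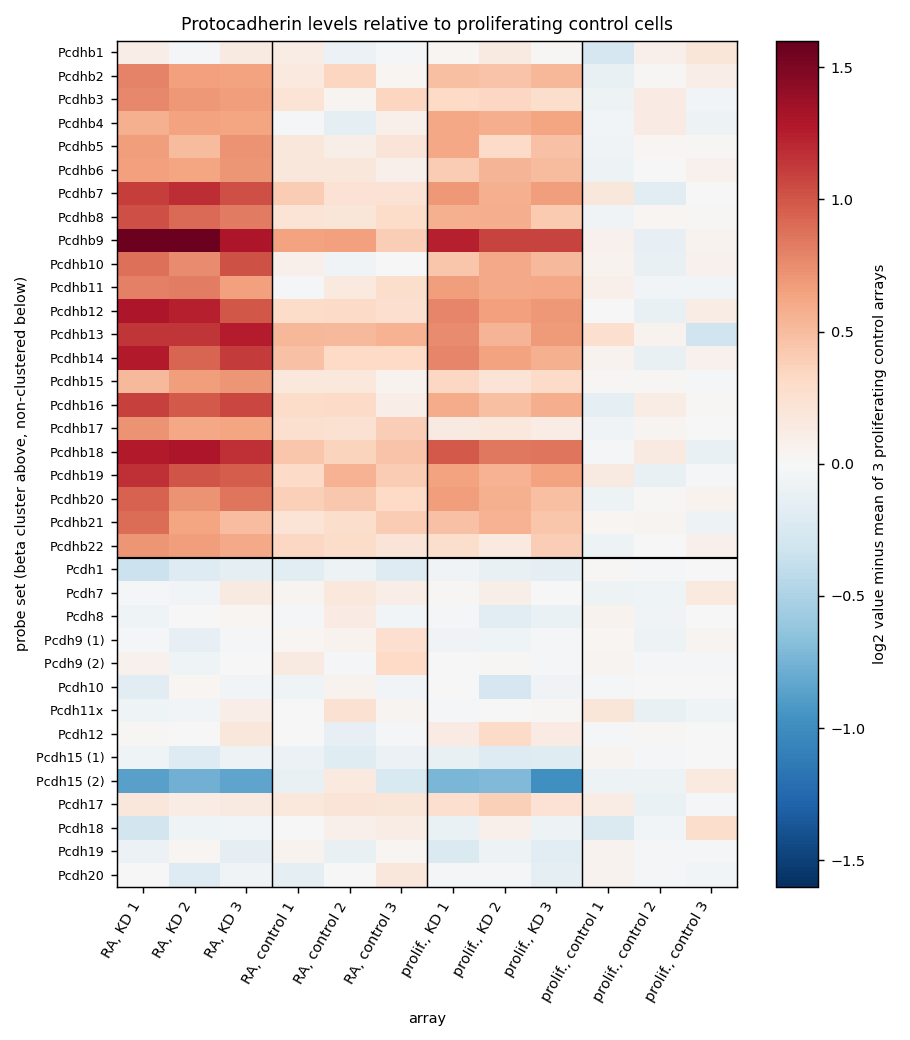
Each row is 1 of 36 protocadherin probe sets and each column 1 of 12 arrays; colour gives the log2 value minus the mean of the 3 proliferating control arrays, red for higher. In the beta cluster 21 of 22 rows are redder on every KD array than on the control arrays of the same state, and 1 Pcdh15 row is blue on all 6 KD arrays.

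The beta genes are given in their order along the chromosome, with log2 expression on each array and changes as KD minus control with the standard error. Beta paralogs are close in sequence and the probes were not examined, so that hybridisation shared between paralogs may blur values assigned to single genes. Pcdhb1, the first gene of the cluster, had the smallest KD change of the 22 in each state. Pcdhb1 measured 5.95, 5.83 and 5.99 on the RA KD arrays, 5.97, 5.75 and 5.82 on the RA control arrays, 5.88, 5.99 and 5.87 on the proliferating KD arrays and 5.58, 5.94 and 6.04 on the proliferating control arrays. Its KD and control arrays overlapped in both states. The change was 0.08 ± 0.10 after RA (95% interval -0.14 to 0.30) and 0.07 ± 0.10 in proliferating cells (-0.16 to 0.29), neither of them called.

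From Pcdhb2 to Pcdhb8 the KD changes in proliferating cells ran between 0.31 and 0.65. Pcdhb2 measured 7.05, 6.92 and 6.91 on the RA KD arrays, 6.42, 6.60 and 6.30 on the RA control arrays, 6.74, 6.72 and 6.80 on the proliferating KD arrays and 6.14, 6.28 and 6.37 on the proliferating control arrays. Pcdhb3 measured 7.21, 7.13 and 7.11 on the RA KD arrays, 6.67, 6.50 and 6.79 on the RA control arrays, 6.76, 6.78 and 6.73 on the proliferating KD arrays and 6.36, 6.58 and 6.40 on the proliferating control arrays. Pcdhb4 measured 7.70, 7.77 and 7.76 on the RA KD arrays, 7.10, 6.97 and 7.21 on the RA control arrays, 7.74, 7.70 and 7.76 on the proliferating KD arrays and 7.08, 7.25 and 7.04 on the proliferating control arrays. In these genes every KD array exceeded every control array of its state. The Pcdhb2 change in KD cells was 0.52 ± 0.08 after RA and 0.49 ± 0.08 while proliferating. The Pcdhb3 change in KD cells was 0.50 ± 0.07 after RA and 0.31 ± 0.07 while proliferating. The Pcdhb4 change in KD cells was 0.64 ± 0.07 after RA and 0.61 ± 0.07 while proliferating. Pcdhb3 was called after RA only, its change in proliferating cells being 1.24-fold (adjusted p = 0.0102). Pcdhb5 measured 6.74, 6.58 and 6.78 on the RA KD arrays, 6.25, 6.17 and 6.28 on the RA control arrays, 6.69, 6.38 and 6.54 on the proliferating KD arrays and 6.01, 6.10 and 6.09 on the proliferating control arrays. Pcdhb6 measured 8.02, 7.99 and 8.06 on the RA KD arrays, 7.53, 7.54 and 7.44 on the RA control arrays, 7.76, 7.90 and 7.86 on the proliferating KD arrays and 7.28, 7.37 and 7.43 on the proliferating control arrays. Both genes were called in both states. The Pcdhb5 change in KD cells was 0.47 ± 0.08 after RA and 0.47 ± 0.08 while proliferating. The Pcdhb6 change in KD cells was 0.52 ± 0.05 after RA and 0.48 ± 0.05 while proliferating. Pcdhb7 and Pcdhb8 close this stretch. Pcdhb7 measured 7.75, 7.83 and 7.68 on the RA KD arrays, 7.05, 6.88 and 6.87 on the RA control arrays, 7.34, 7.21 and 7.31 on the proliferating KD arrays and 6.83, 6.47 and 6.63 on the proliferating control arrays. Pcdhb8 measured 8.56, 8.43 and 8.36 on the RA KD arrays, 7.74, 7.73 and 7.82 on the RA control arrays, 8.09, 8.11 and 7.95 on the proliferating KD arrays and 7.48, 7.56 and 7.54 on the proliferating control arrays. The RA KD arrays were the highest of the 4 groups for both, and the proliferating control arrays lay lowest. The Pcdhb7 change in KD cells was 0.82 ± 0.08 after RA and 0.65 ± 0.08 while proliferating. The Pcdhb8 change in KD cells was 0.68 ± 0.06 after RA and 0.52 ± 0.06 while proliferating.

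The stretch from Pcdhb9 to Pcdhb15 held the largest KD change, that of Pcdhb9, whose mean level of 4.99 was the lowest among all members. Pcdhb9 measured 5.76, 5.77 and 5.50 on the RA KD arrays, 4.84, 4.86 and 4.60 on the RA control arrays, 5.44, 5.28 and 5.28 on the proliferating KD arrays and 4.27, 4.06 and 4.26 on the proliferating control arrays. All 3 RA KD arrays exceeded all other arrays and all 3 proliferating control arrays lay below all others. After RA the change was 0.91 ± 0.09, or 1.88-fold (adjusted p = 4.19e-05), and in proliferating cells it was 1.13 ± 0.09, or 2.19-fold (adjusted p = 8.34e-06), rank 9 among the rises of all probe sets tested. Pcdhb10 measured 6.77, 6.64 and 6.90 on the RA KD arrays, 5.96, 5.83 and 5.89 on the RA control arrays, 6.33, 6.49 and 6.41 on the proliferating KD arrays and 5.94, 5.76 and 5.95 on the proliferating control arrays. Its RA control and proliferating control arrays overlapped, while the RA KD arrays exceeded the proliferating KD arrays. The change was 0.88 ± 0.07 after RA and 0.53 ± 0.07 in proliferating cells, and the difference between these of 0.35 ± 0.10 was the largest in the cluster and was not called (adjusted p = 0.149). Pcdhb11 measured 7.76, 7.77 and 7.61 on the RA KD arrays, 6.91, 7.10 and 7.23 on the RA control arrays, 7.61, 7.55 and 7.57 on the proliferating KD arrays and 7.03, 6.90 and 6.90 on the proliferating control arrays. Pcdhb12 measured 7.77, 7.72 and 7.47 on the RA KD arrays, 6.78, 6.79 and 6.74 on the RA control arrays, 7.26, 7.13 and 7.17 on the proliferating KD arrays and 6.47, 6.37 and 6.60 on the proliferating control arrays. Both were called in both states. The Pcdhb11 change in KD cells was 0.63 ± 0.07 after RA and 0.63 ± 0.07 while proliferating. The Pcdhb12 change in KD cells was 0.89 ± 0.08 after RA and 0.71 ± 0.08 while proliferating. For the next genes the lowest array of all was a proliferating control array. Pcdhb13 measured 7.38, 7.38 and 7.48 on the RA KD arrays, 6.76, 6.75 and 6.79 on the RA control arrays, 6.99, 6.78 and 6.91 on the proliferating KD arrays and 6.50, 6.29 and 5.91 on the proliferating control arrays. Pcdhb14 measured 7.34, 7.01 and 7.20 on the RA KD arrays, 6.55, 6.40 and 6.40 on the RA control arrays, 6.86, 6.73 and 6.65 on the proliferating KD arrays and 6.13, 5.96 and 6.15 on the proliferating control arrays. Pcdhb15 measured 8.27, 8.43 and 8.46 on the RA KD arrays, 7.93, 7.92 and 7.81 on the RA control arrays, 8.08, 7.97 and 8.06 on the proliferating KD arrays and 7.77, 7.77 and 7.72 on the proliferating control arrays. In all of them KD and control arrays of a state did not overlap. The Pcdhb13 change in KD cells was 0.65 ± 0.11 after RA and 0.66 ± 0.11 while proliferating. The Pcdhb14 change in KD cells was 0.73 ± 0.09 after RA and 0.67 ± 0.09 while proliferating. The Pcdhb15 change was 0.50 ± 0.06 after RA, where it was called, and 0.28 ± 0.06 in proliferating cells, under the fold threshold at an adjusted p of 0.00447.

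The last stretch, Pcdhb16 to Pcdhb22, held both large and small changes. Pcdhb16 measured 7.53, 7.41 and 7.50 on the RA KD arrays, 6.73, 6.73 and 6.54 on the RA control arrays, 7.02, 6.91 and 7.01 on the proliferating KD arrays and 6.29, 6.55 and 6.45 on the proliferating control arrays. Pcdhb17 measured 6.63, 6.53 and 6.55 on the RA KD arrays, 6.16, 6.16 and 6.30 on the RA control arrays, 6.05, 6.08 and 6.03 on the proliferating KD arrays and 5.86, 5.96 and 5.92 on the proliferating control arrays. Pcdhb18 measured 7.51, 7.54 and 7.42 on the RA KD arrays, 6.69, 6.60 and 6.71 on the RA control arrays, 7.23, 7.09 and 7.10 on the proliferating KD arrays and 6.22, 6.39 and 6.12 on the proliferating control arrays. Their KD arrays exceeded the control arrays of the same state throughout. The Pcdhb16 change in KD cells was 0.81 ± 0.07 after RA and 0.55 ± 0.07 while proliferating. The Pcdhb17 change in KD cells was 0.36 ± 0.05 after RA and 0.14 ± 0.05 while proliferating. The Pcdhb18 change in KD cells was 0.83 ± 0.07 after RA and 0.89 ± 0.07 while proliferating. Pcdhb17 was called in neither KD comparison, with a 1.29-fold change, just under the threshold, after RA and an adjusted p of 0.0753 in proliferating cells. Pcdhb19 measured 7.24, 7.07 and 7.04 on the RA KD arrays, 6.37, 6.63 and 6.48 on the RA control arrays, 6.72, 6.63 and 6.71 on the proliferating KD arrays and 6.21, 5.96 and 6.04 on the proliferating control arrays. Pcdhb20 measured 7.28, 7.06 and 7.19 on the RA KD arrays, 6.73, 6.77 and 6.67 on the RA control arrays, 7.01, 6.91 and 6.82 on the proliferating KD arrays and 6.26, 6.36 and 6.40 on the proliferating control arrays. Both were called in both states. The Pcdhb19 change in KD cells was 0.62 ± 0.08 after RA and 0.61 ± 0.08 while proliferating. The Pcdhb20 change in KD cells was 0.46 ± 0.07 after RA and 0.57 ± 0.07 while proliferating. The end of the cluster lay near the fold threshold. Pcdhb21 measured 7.21, 6.95 and 6.80 on the RA KD arrays, 6.54, 6.59 and 6.71 on the RA control arrays, 6.79, 6.86 and 6.75 on the proliferating KD arrays and 6.35, 6.35 and 6.23 on the proliferating control arrays. Pcdhb22 measured 7.19, 7.15 and 7.08 on the RA KD arrays, 6.81, 6.77 and 6.69 on the RA control arrays, 6.77, 6.64 and 6.88 on the proliferating KD arrays and 6.40, 6.47 and 6.57 on the proliferating control arrays. KD arrays exceeded the control arrays of the same state in both. The Pcdhb21 change in KD cells was 0.37 ± 0.09 after RA and 0.49 ± 0.09 while proliferating. The Pcdhb22 change in KD cells was 0.38 ± 0.07 after RA and 0.28 ± 0.07 while proliferating. Pcdhb21 was called in proliferating cells only and Pcdhb22 after RA only, and the call of Pcdhb22 ended without RA control replicate 3 (0.35), RA KD replicate 1 (0.36) or RA KD replicate 2 (0.38), and with the arrays centred on their medians (0.34).

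By position, the median KD change was 0.52 after RA and 0.49 in proliferating cells for the 7 genes from Pcdhb2 to Pcdhb8, 0.73 after RA and 0.66 in proliferating cells for the 7 from Pcdhb9 to Pcdhb15, and 0.46 after RA and 0.55 in proliferating cells for the 7 from Pcdhb16 to Pcdhb22. Within groups, the deviations of single arrays from their group mean were little shared by the beta genes, with a median correlation of 0.02 over 231 pairs of genes and 12 arrays. The difference between the KD changes of the 2 states, the interaction, was called for 0 of 22 beta probe sets in limma, with 4 at an unadjusted p under 0.05, where 0.399% of all probe sets were called. Its values ran between -0.22 and 0.35, and the 95% interval reached past 1.3-fold for 8 of the 22.

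**Figure D2:**
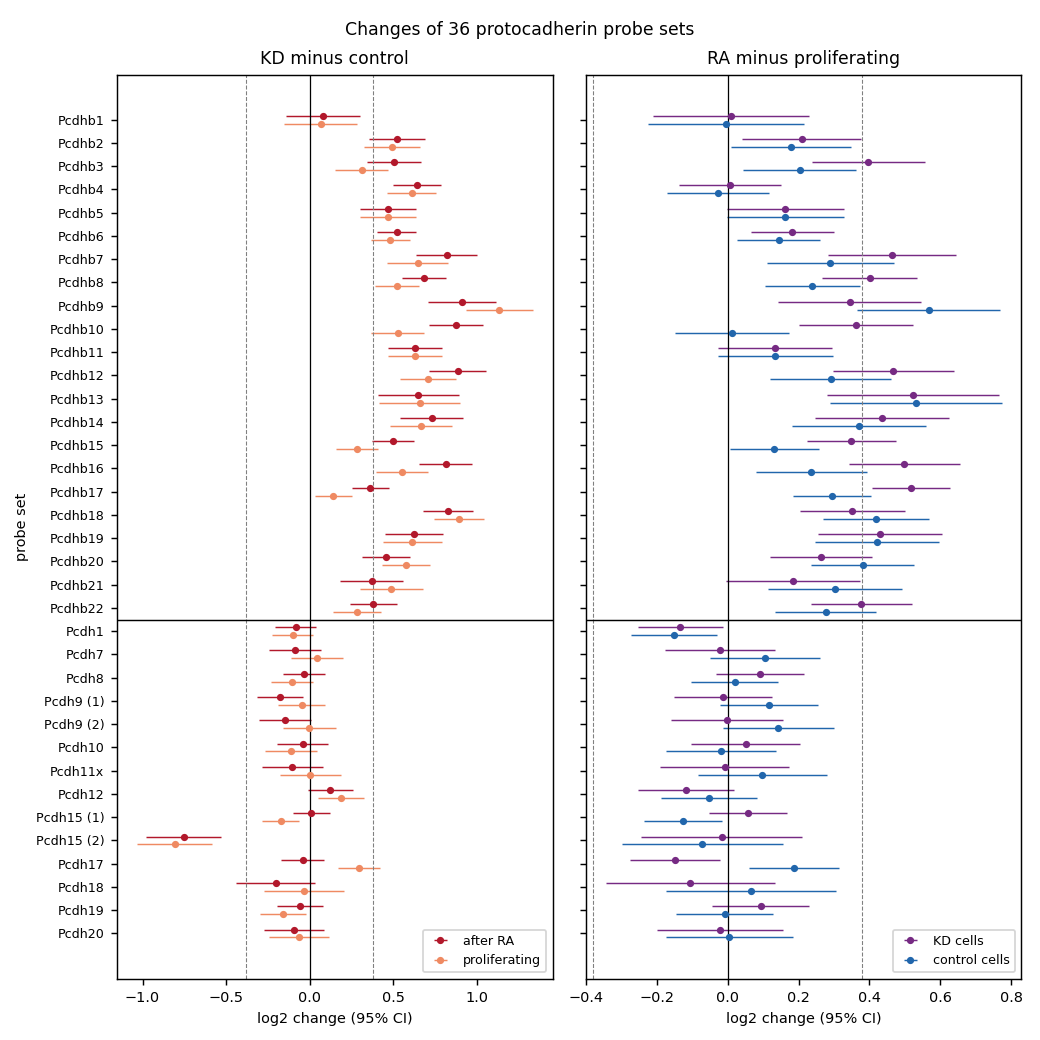
Points are log2 changes of 36 probe sets with 95% confidence intervals from limma, KD minus control on the left and RA minus proliferating on the right; dashed lines mark 1.3-fold. KD points of 21 beta genes lie at 0.14 or above, and those of the non-clustered genes lie around 0 except 1 Pcdh15 probe set at -0.75 after RA and -0.81 in proliferating cells.

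The non-clustered protocadherins differed from the beta cluster in their counts. In each state 0 of 14 probe sets were called higher and 1 lower with KD, beside 1.82% of all probe sets called higher and 1.98% lower after RA, and 1.95% higher and 1.42% lower in proliferating cells. With 14 probe sets, counts of 0 or 1 do not set these genes apart from all probe sets. Their median KD change was -0.09 after RA and -0.06 in proliferating cells. All KD arrays lay below all control arrays for 3 of 14 probe sets after RA and 4 in proliferating cells, where 19.2% and 18.8% of all probe sets had that arrangement in those states. They lay above all control arrays for 1 after RA and 2 in proliferating cells, as they did for 14.7% and 19.9% of all. Pcdh12 had this upward arrangement in both states.

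The call in both states was Pcdh15, which encodes a component of the tip links of inner ear hair cells. Its main probe set, the one that lists 12 RefSeq mRNAs, measured 5.95, 6.05 and 5.96 on the RA KD arrays, 6.69, 6.97 and 6.56 on the RA control arrays, 6.09, 6.10 and 5.83 on the proliferating KD arrays and 6.74, 6.73 and 6.97 on the proliferating control arrays. All 6 KD arrays lay below all 6 control arrays. The level fell by 0.75 ± 0.10 in KD cells after RA (adjusted p = 0.000319) and by 0.81 ± 0.10 in proliferating KD cells (adjusted p = 0.000221). A second Pcdh15 probe set, with 3 accessions and no RefSeq mRNA, measured 6.87, 6.73 and 6.85 on the RA KD arrays, 6.84, 6.74 and 6.84 on the RA control arrays, 6.82, 6.73 and 6.74 on the proliferating KD arrays and 6.98, 6.90 and 6.93 on the proliferating control arrays. Its KD arrays lay below the control arrays in proliferating cells only. The change was 0.01 ± 0.05 after RA and -0.17 ± 0.05 in proliferating cells (adjusted p = 0.0319), under the fold threshold. The probe sets of this gene therefore disagreed in direction after RA, at -0.75 and 0.01, and in size in proliferating cells. The part of the transcript that each covers was not examined. Since Pcdh15 was the non-clustered member called, and the study is concerned with methylation of CpG sites, the 250 bases before its start in RefSeq (GRCm38.p6, chr10:73821617-73821866, + strand) are shown with each CG dinucleotide, searched as the letters CG, in capitals.
Pcdh15: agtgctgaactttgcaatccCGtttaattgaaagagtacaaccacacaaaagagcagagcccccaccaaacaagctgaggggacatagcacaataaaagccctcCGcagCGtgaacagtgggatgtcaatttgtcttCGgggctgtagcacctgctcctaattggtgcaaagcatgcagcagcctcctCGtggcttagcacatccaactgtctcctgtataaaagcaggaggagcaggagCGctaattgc
The stretch held 6 CG dinucleotides, and 50.4% of 32851 promoter stretches of that length held at least as many. This is a description of the letters, and methylation was not measured here. Other starts of the gene were not examined, and the promoter reference used held no beta gene, so no beta promoter is shown.

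Pcdh17, a protocadherin of axons and synapses, measured 7.64, 7.58 and 7.60 on the RA KD arrays, 7.63, 7.67 and 7.65 on the RA control arrays, 7.72, 7.85 and 7.70 on the proliferating KD arrays and 7.58, 7.36 and 7.45 on the proliferating control arrays. Its proliferating control cells had the lowest group mean. The KD change was -0.04 ± 0.06 after RA and 0.29 ± 0.06 in proliferating cells (adjusted p = 0.00381), under the fold threshold. The interaction of -0.34 ± 0.08 was not called (adjusted p = 0.0902). Pcdh12, a protocadherin known from endothelial cells, had KD changes of 0.12 ± 0.06 after RA and 0.19 ± 0.06 in proliferating cells, and Pcdh19, mutated in a form of epilepsy in people, of -0.06 ± 0.06 after RA and -0.16 ± 0.06 in proliferating cells. Pcdh1, an adhesion molecule of epithelia, had changes of -0.08 ± 0.06 after RA and -0.10 ± 0.06 in proliferating cells, and Pcdh18 of -0.20 ± 0.11 after RA and -0.03 ± 0.11 in proliferating cells. Of the remaining members, the probe sets of Pcdh7, Pcdh8, Pcdh9, Pcdh10, Pcdh11x and Pcdh20 stayed between -0.18 and 0.04 in both states. The 13 uncalled probe sets had 95% intervals between -0.44 and 0.26 after RA and between -0.30 and 0.42 in proliferating cells, and 1 of them reached past 1.3-fold in each state.

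**Figure D3:**
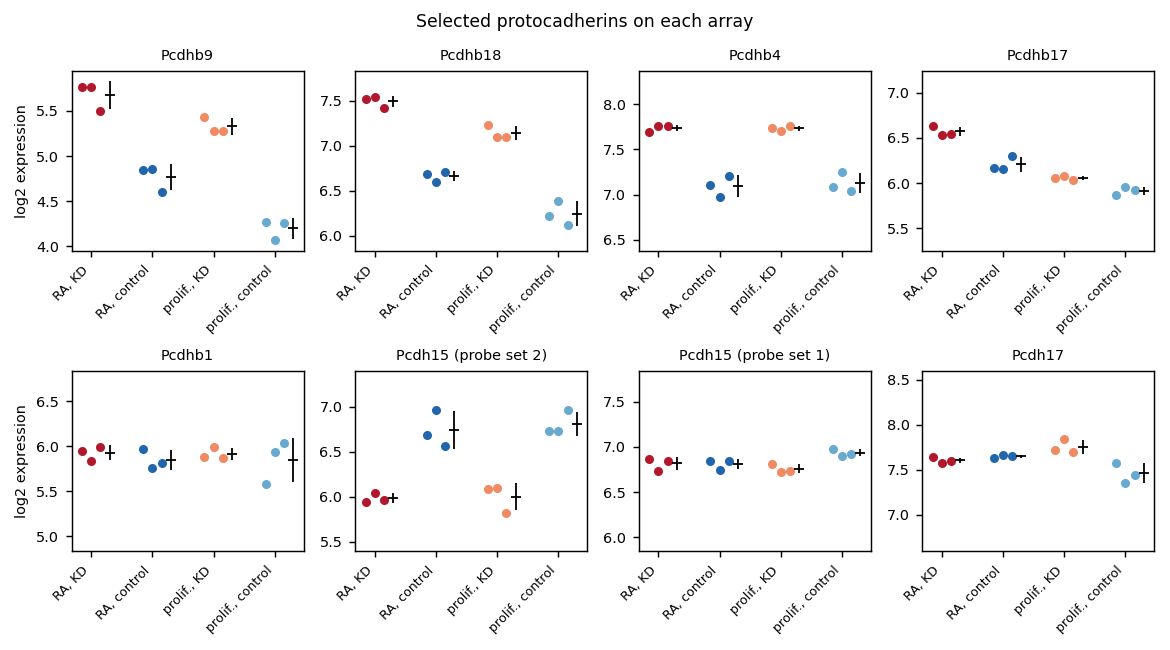
Log2 expression of 7 protocadherins on each array, with Pcdh15 shown for both of its probe sets; coloured points are arrays and the black mark beside them the mean with 1 SD (n = 3), on vertical axes of equal span. Within each state, KD arrays stand above control arrays for Pcdhb9, Pcdhb18, Pcdhb4 and Pcdhb17, overlap them for Pcdhb1 and stand below them for Pcdh15 probe set 2.

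Summarised by array, the beta cluster kept the 4 groups apart. The median over the 22 beta probe sets, relative to the proliferating control means, was 0.89, 0.74 and 0.77 on the RA KD arrays, 0.24, 0.26 and 0.28 on the RA control arrays, 0.60, 0.55 and 0.53 on the proliferating KD arrays and -0.03, 0.02 and 0.02 on the proliferating control arrays. No 2 groups overlapped. For the 14 non-clustered probe sets the same median lay between -0.07 and 0.06 on all arrays. RA KD had the highest group mean for all 22 beta genes, proliferating control the lowest for 20, and the proliferating KD mean exceeded the RA control mean for 21. From highest to lowest, the means ran in the order RA KD, proliferating KD, RA control and proliferating control for 19 of 22.

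**Figure D4:**
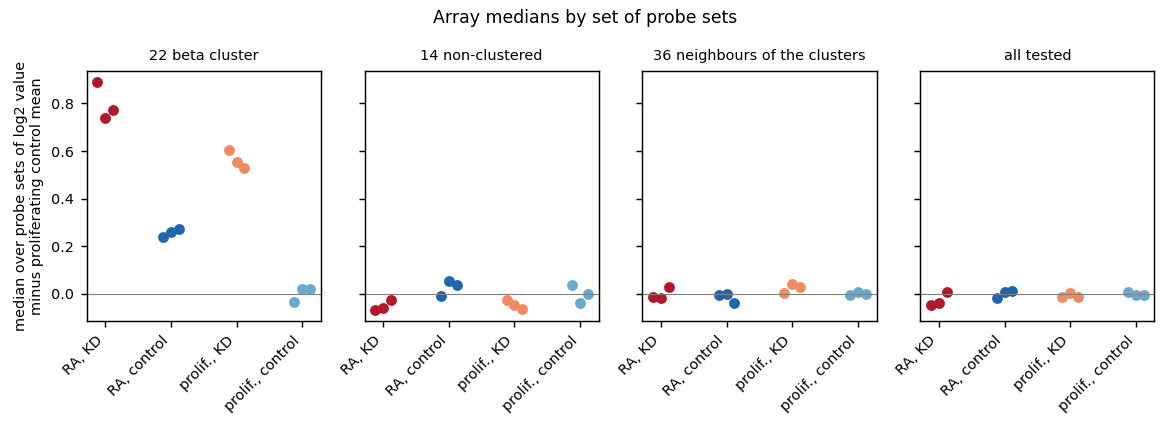
Each point is 1 array, at the median over a set of probe sets of the log2 value minus the proliferating control mean; the panels hold the beta cluster, the non-clustered protocadherins, the genes beside the clusters and all probe sets tested. In the beta panel the groups are separate, at 0.74 to 0.89 for RA KD, 0.24 to 0.28 for RA control, 0.53 to 0.60 for proliferating KD and -0.03 to 0.02 for proliferating control, and in the non-clustered panel every array lies within 0.07 of 0.

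The second question was how the protocadherins moved on RA treatment. In KD cells 9 of 22 beta probe sets were called higher after RA and 0 lower, against 2.58% and 2.32% of all probe sets. In control cells 5 of 22 were called higher and 0 lower, where 2.68% and 1.83% of all probe sets were. The median beta change was 0.36 in KD cells and 0.26 in control cells, beside -0.02 in KD cells and 0.00 in control cells over all probe sets. With the fold threshold removed, 16 beta probe sets passed as higher in KD cells and 13 in control cells, as did 7.81% of all probe sets in KD cells and 8.58% in control cells. All RA arrays lay above all proliferating arrays for 17 of 22 beta probe sets in KD cells and 15 in control cells, an arrangement of 13.5% of all probe sets in KD cells and 16.5% in control cells.

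In KD cells the calls were Pcdhb13 (0.52 ± 0.11), Pcdhb17 (0.52 ± 0.05), Pcdhb16 (0.50 ± 0.07), Pcdhb12 (0.47 ± 0.08), Pcdhb7 (0.46 ± 0.08), Pcdhb14 (0.44 ± 0.09), Pcdhb19 (0.43 ± 0.08), Pcdhb8 (0.40 ± 0.06) and Pcdhb3 (0.40 ± 0.07), with adjusted p of 0.00472 or lower (limma). Without RA KD replicate 1 the changes of Pcdhb14 (0.35), Pcdhb19 (0.37), Pcdhb3 (0.37) and Pcdhb8 (0.34) fell under the fold threshold, Pcdhb15 (0.41) passed it and the count of beta calls was 6, and without proliferating KD replicate 3 Pcdhb8 (0.35) did so too. With the arrays centred on their medians Pcdhb3 (0.37) and Pcdhb8 (0.38) lost their calls and the count was 7, and with array weights Pcdhb14 (0.37) lost its call. The calls in control cells were Pcdhb9 (0.57 ± 0.09), Pcdhb13 (0.53 ± 0.11), Pcdhb19 (0.42 ± 0.08), Pcdhb18 (0.42 ± 0.07) and Pcdhb20 (0.38 ± 0.07), with adjusted p of 0.00487 or lower (limma). Of these, Pcdhb9 stayed called whichever array was left out. The others dipped under 1.3-fold without 1 array, Pcdhb13 (0.37) and Pcdhb18 (0.36) without proliferating control replicate 3, Pcdhb19 without proliferating control replicate 2 (0.36) or RA control replicate 2 (0.35), and Pcdhb20 without proliferating control replicate 1 (0.34) or RA control replicate 2 (0.36). Pcdhb17 had the smallest adjusted p of the RA comparisons among members (1.36e-05).

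Called in both kinds of cell were 2 beta genes, Pcdhb13 and Pcdhb19, where 1.93% of all probe sets were called higher in both. Pcdhb1 and Pcdhb4 showed the least change with RA, at 0.01 ± 0.10 and 0.01 ± 0.07 in KD cells and -0.00 ± 0.10 and -0.03 ± 0.07 in control cells. Pcdhb4 was thus called with KD in both states and in neither RA comparison. Of the 14 non-clustered probe sets, 0 were called with RA in either kind of cell in limma, with 2 at an unadjusted p under 0.05 in KD cells and 3 in control cells. Their median change was -0.01 in KD cells and 0.01 in control cells, and no 95% interval reached 1.3-fold.

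Genes beside the clusters were read next to the members. There, 36 probe sets covered 34 measured genes among the 20 genes before the first clustered protocadherin and the 20 after the last in RefSeq order, Pcdh1 and Pcdh12 set aside. With KD, 0 of the 36 were called higher after RA in limma and 1 in proliferating cells, Hars2 (0.41), which encodes a mitochondrial histidyl-tRNA synthetase and lies before the alpha cluster, and 0 were called lower in either state, beside 1.82% of all probe sets called higher after RA and 1.95% in proliferating cells. At the adjusted p alone, 4 were higher and 3 lower after RA, where 9.6% of all probe sets were higher and 12% lower, and 5 were higher and 1 lower in proliferating cells, where 10.8% of all were higher and 7.67% lower. Their median change was -0.00 after RA and 0.02 in proliferating cells. Slc25a2 (0.07 after RA and -0.20 in proliferating cells) and Taf7 (-0.03 after RA and 0.13 in proliferating cells), which lie between the beta and gamma clusters, were not called. With RA, Arhgap26 changed by -0.48 in KD cells and -0.55 in control cells, Tmco6 changed by -0.39 in KD cells and Slc35a4 rose by 0.41 in control cells.

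**Figure D5:**
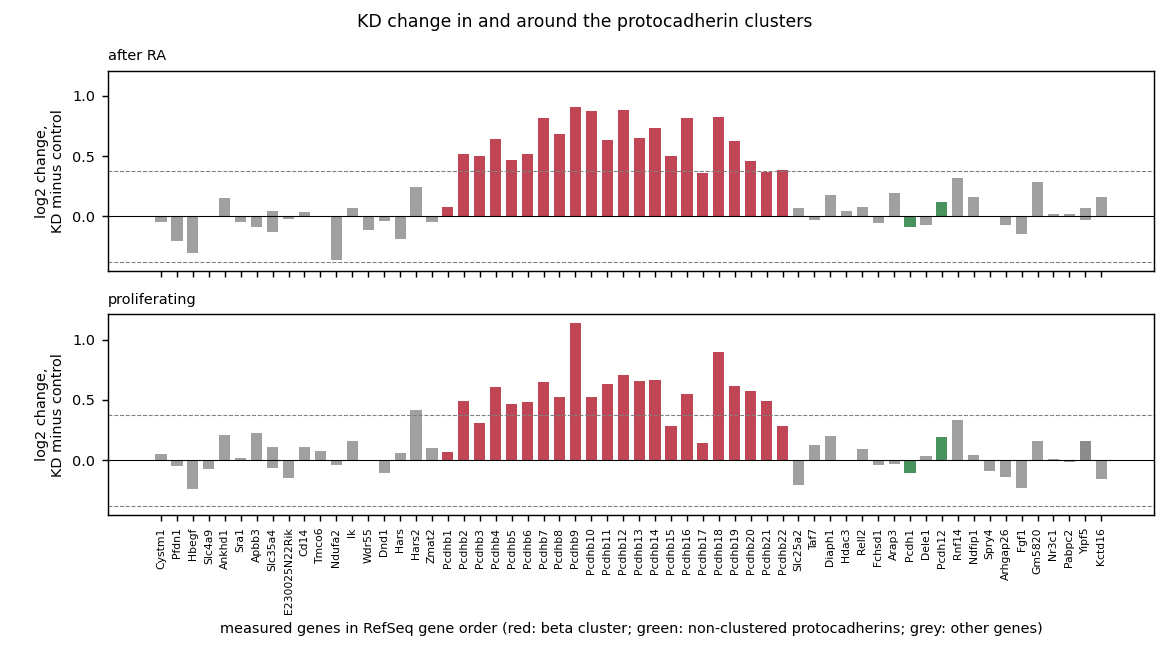
Bars give the log2 change, KD minus control, of measured genes in RefSeq gene order around the protocadherin clusters, after RA above and in proliferating cells below; red marks the beta cluster, green Pcdh1 and Pcdh12, grey the other genes, and dashed lines 1.3-fold. Bars past the upper line stand at 19 beta genes after RA, and at 17 beta genes and Hars2 in proliferating cells.

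The alpha probe set, which adds up 14 genes, measured 7.75, 7.75 and 7.74 on the RA KD arrays, 7.77, 7.74 and 7.71 on the RA control arrays, 7.81, 7.76 and 7.77 on the proliferating KD arrays and 7.90, 7.89 and 7.80 on the proliferating control arrays. Its KD and control arrays overlapped in both states. The KD change was 0.01 ± 0.04 after RA (adjusted p = 0.946 over all probe sets of the array, limma) and -0.08 ± 0.04 in proliferating cells (adjusted p = 0.236), so that no KD change was detectable on this probe set. Its RA change was -0.04 ± 0.04 in KD cells (adjusted p = 0.648, limma) and -0.12 ± 0.04 in control cells (adjusted p = 0.0743), and neither was called.

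Lists of genes around protocadherin biology were read beside the members. Among regulators of promoter choice and chromatin at the clusters, 20 probe sets stood for 16 of 17 genes. In KD cells after RA 2 were called lower, both of Tet1 (-0.57 and -0.38), an enzyme that oxidises methylated cytosine, and 0 higher, where 1.98% of all probe sets were lower and 1.82% higher. In proliferating KD cells both Tet1 probe sets were again called lower (-0.39 and -0.40) and 1 was called higher, the cohesin subunit Smc3 (0.43), where 1.42% of all were lower and 1.95% higher. At the adjusted p alone, 7 were higher and 5 lower with KD after RA, where 9.6% of all probe sets were higher and 12% lower. In proliferating cells 9 were higher and 3 lower with KD, where 10.8% of all were higher and 7.67% lower. With RA itself 0 were called in either direction in limma. At the adjusted p alone 8 were higher in KD cells, as were 7.81% of all probe sets, and 7 in control cells, as were 8.58%. The list's median KD change was 0.12 after RA and 0.15 in proliferating cells. Genes for shedding of protocadherins and signalling from them, 17 probe sets for 15 of 18 genes, gave 0 calls with KD in either state, with 3 higher and 2 lower after RA and 4 lower in proliferating cells at the adjusted p alone. The shares of all probe sets at that threshold are those given above for KD. The receptor tyrosine kinase Ret, a protocadherin partner, changed by -0.42 with RA both in KD cells and in control cells.

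Calls among other cadherins were at about the share of all probe sets, with 1 of 50 probe sets higher with KD in each state. Of these 50 probe sets for 34 of 35 classical and other cadherin genes, the call with KD after RA was the atypical cadherin Fat1 (0.41), and those in proliferating cells were the calsyntenin Clstn3 (0.46) and Cdh18 (-0.42). Another Cdh18 probe set, at -0.15 in proliferating cells, was not called. With RA, a Cdh24 probe set rose by 0.56 in KD cells and 0.41 in control cells. Another Cdh24 probe set changed by -0.03 in KD cells and 0.07 in control cells and was not called. Cdh15, the muscle cadherin, changed by -0.43 in KD cells and Fat1 by -0.48 in control cells. Their median KD change was -0.05 after RA and -0.04 in proliferating cells. The 6 catenins, which link classical cadherins to the cytoskeleton, gave 0 calls in any comparison in limma, and the change nearest the threshold was that of Ctnnb1 with KD in proliferating cells (0.36, adjusted p = 0.000481).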

How the data were processed

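RNA of the 12 samples had been hybridised to Affymetrix Mouse Gene 1.0 ST arrays. The authors deposited log2 expression values, 1 for each of 35556 probe sets and array; RMA and limma are named in the submitters' processing notes without a version, and per the study's methods the arrays were background corrected, quantile normalised and summarised by gene. Quantile normalisation hides any change in the total RNA of a cell, and the number of arrays limits the precision.

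Gene symbols came from GEO's platform annotation; all 36 members matched RefSeq (GRCm38.p6) by gene ID, 0 were renamed, and 1621 probe sets with several symbols and 12146 without one were not tested. Levels were not corrected for background further. A limma fit (version 3.58.1, R 4.3.3) with 4 group means and no replicate block was run on all 21789 single-symbol probe sets, with 5 two-sided contrasts (the KD change before and after RA, the RA change in KD and in control cells, and the interaction) and Benjamini-Hochberg adjustment in each. The thresholds, adjusted p under 0.05 and at least 1.3-fold, follow the study's methods, whose variance filter was kept as an alternative because it would leave non-clustered members untested. The procedure was tested on simulated data. Members and gene lists were chosen with earlier results of these data known, so lists were described by counts and medians alone. By rule, values on every array were given for members called in any comparison and for the Pcdh15 probe set that ran the other way after RA. Those of Pcdhb1 and Pcdh17 were added after their values were seen, and other members were given by their changes or as a range. The alternatives tried were the variance filter, 1 probe set per gene, all probe sets, a filter on low values, median centring, the replicate block, fits on the groups compared, array weights, a trended robust eBayes fit, no fold threshold, and each array left out in turn.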

Additional observations from a re-analysis of the deposited data

How the results depend on the processing

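Over 52 called member values and all alternatives that could test them, 1098 refits gave 1080 that kept direction and call, 18 that kept direction but lost the call, and 0 that turned round; 9 values lost their call somewhere. These counts include refits that could not move a result. Removing the fold threshold can end no call, and leaving out an array of a group not compared does not alter the change. Leaving out low values (probe sets with a mean under the median of all) kept 3 beta and 2 non-clustered probe sets in the test, so counts shrank by construction: beta calls were 3 for KD after RA, 2 for KD in proliferating cells, 1 for RA in KD cells and 0 for RA in control cells, and non-clustered calls were 0 for KD in both states. Pcdh15 was not among those tested. Without the fold threshold the non-clustered calls for KD were 1 lower after RA, and 1 higher and 2 lower in proliferating cells. Of all probe sets, 12% were lower after RA, and 10.8% were higher and 7.67% lower in proliferating cells. For RA in control cells 1 non-clustered probe set was called higher, as were 8.58% of all. The beta calls were 16 higher for RA in KD cells and 13 in control cells, beside 7.81% and 8.58% of all. Leaving out each array in turn gave 18 to 20 beta calls for KD after RA, 17 every time for KD in proliferating cells, 6 to 12 for RA in KD cells and 4 to 6 for RA in control cells. Same-numbered arrays of different groups deviated together weakly at most, with r between -0.08 and 0.21 over 18 pairs, 5 of them over 0.1. Of 36 best matches, each sought among the 3 arrays of another group, 15 fell on the own number. With the replicate block the beta counts were 19 for KD after RA, 17 for KD in proliferating cells, 9 for RA in KD cells and 5 for RA in control cells, as without it. Only 5 of the 36 members had a mean above the median of all probe set means.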
